A study of Homo sapiens with 12 samples.

Results

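S134A-GR and wt-GR cells of the breast cancer line MDA-MB-231 were compared after 6 h of TGFβ1, over all genes. The 3 libraries labelled S134A-GR TGF-beta were set against the 3 labelled WT-GR TGF-beta, 6 of the 12 libraries of the study, and 18579 of the 19907 gene symbols had enough reads to be tested. The study asks what the glucocorticoid receptor (GR) does when its Ser134 cannot be phosphorylated and no GR ligand is added. Both lines were kept for 18 h in medium with 1% charcoal-stripped serum (DCC) and then given TGFβ1 at 10 ng/mL, or vehicle, for 6 h. In S134A-GR cells both copies of the GR gene carry the alanine codon, placed there by CRISPR knock-in, and the libraries come from clone #1, which grew from a single cell. The wt-GR cells are a clone of the same edited population that had not been targeted. Each line is therefore 1 clone, and the GR mutation and the history of the clone cannot be told apart. The labels do not say whether the 3 replicates of a group are separate cultures, so the p-values measure the spread between these libraries, which may be technical.

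Values are normalized counts, reads per gene divided by a size factor for each library. The reads behind them numbered 85929281, 129832227 and 93363054 in the wt-GR libraries under TGFβ1 and 96085883, 89299074 and 125269542 in the S134A-GR libraries. These totals are over 2 times the average depth that the study's methods state, and whether the mates of a pair were counted separately is not given, so a read here may be a mate. A level of 3 reads, taken as the lowest detected, corresponded to 2.20 to 3.33 normalized counts in the wt-GR and 2.15 to 3.04 in the S134A-GR libraries, and covers counting error only. Differences are given as log2 fold changes, with wt-GR cells as the reference, so that a negative value means a lower level in S134A-GR cells, and adjusted p-values and FDR are from limma over all genes tested.

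TGFβ1 is a secreted cytokine that binds a pair of receptor kinases, which phosphorylate SMAD proteins and also feed the stress kinase p38 MAPK. SMAD complexes switch on matrix, migration and feedback genes, and in triple-negative breast cancer cells these genes accompany invasion. GR is a steroid-activated transcription factor, and Ser134 is a site that p38 MAPK phosphorylates under stress without a steroid.

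NR3C1, the gene of GR, had 10486, 11326 and 10512 normalized counts in the wt-GR libraries and 9398, 8336 and 8341 in the S134A-GR libraries under TGFβ1. Every S134A-GR library lay below every wt-GR library, by a modest margin. The codon of Ser134 lies in exon 2 of transcript ENST00000394464.7, on the minus strand of chromosome 5 at 143400438 to 143400440 of GRCh38. The 57 bases around it, chr5:143400411-143400467 of the reference, are printed because this codon is the designed amino acid difference between the lines, and capitals mark the codon that the knock-in replaced. The donor also carried 1 silent base change in the guide site, within the printed bases and not marked.
NR3C1, Ser134 codon: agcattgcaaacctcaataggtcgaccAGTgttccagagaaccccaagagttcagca
The deposited values are sums per gene, so neither allele can be read from them.

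Both lines had the marker pattern of MDA-MB-231, a mesenchymal triple-negative line. VIM, the intermediate filament of mesenchymal cells, had 493148, 510773 and 504254 normalized counts in wt-GR cells and 528887, 533198 and 500529 in S134A-GR cells. The 12 genes listed for basal B and mesenchymal breast cancer cells summed to 1381410, 1395970 and 1389430 in the wt-GR libraries and 1359920, 1352540 and 1300860 in the S134A-GR libraries, with VIM the most abundant. Of these genes 1 was higher (ANXA1) and 6 were lower in S134A-GR cells at an FDR under 0.05, against 23.1% and 25.7% of all genes tested, and each differed by less than 1 on the log2 scale. ESR1, the estrogen receptor, averaged 6.02 ± 1.72 normalized counts in wt-GR and 3.08 ± 1.2 in S134A-GR cells (mean ± SD of 3 libraries), and the epithelial cadherin CDH1 had 4.99 ± 4.36 and 4.09 ± 2.36, while PGR, the progesterone receptor, is not in the files. ERBB2, which triple-negative tumors do not amplify, had 7734 ± 463 and 9119 ± 347, and with ESR1 it summed to 7839, 7237 and 8144 in the wt-GR libraries and 8797, 9488 and 9082 in the S134A-GR libraries.

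Markers of luminal breast epithelium differed between the lines. Of the 14 tested, 3 were higher and 9 lower in S134A-GR cells, and their sum was 130103, 123964 and 132430 in the wt-GR libraries and 100366, 106415 and 95131 in the S134A-GR libraries, with KRT8 the most abundant. Of 6 basal epithelial markers 1 was higher and 3 were lower, with a sum of 57212, 55292 and 61652 in the wt-GR libraries and 103008, 109571 and 108734 in the S134A-GR libraries, nearly all of it LAMB3, and KRT5 had 9.72 ± 2.2 and 1.29 ± 1.45. Of 8 leukocyte markers 4 were lower, with a sum of 10170.4, 10024 and 10078 in the wt-GR libraries and 4618, 4505 and 4435 in the S134A-GR libraries. LCP1 was the most abundant, and PTPRC, which defines leukocytes, had 1.46 ± 2.54 and 3.29 ± 3.07, at or near the level of 3 reads. Of 7 endothelial markers 4 were lower, with a sum of 7138, 7072 and 7005 in the wt-GR libraries and 2951, 3139.7 and 2845 in the S134A-GR libraries, most of it ESAM, while CLDN5 had 7.38 ± 0.743 and 3.57 ± 0.627. Of 8 fibroblast markers 1 was higher and 3 were lower, with a sum of 4879, 4493 and 4941 in the wt-GR libraries and 2939.8, 2926 and 2625 in the S134A-GR libraries, most of it PDGFRB, while DCN, which defines fibroblasts, had 1.85 ± 2.06 and 1.35 ± 2.34. Of 6 neural markers 1 was higher and 2 were lower, with a sum of 1159.8, 1186 and 1176 in the wt-GR libraries and 1269, 1375 and 1209 in the S134A-GR libraries, and RBFOX3 was the most abundant. Each line is 1 clone of MDA-MB-231, so these markers give RNA levels within that line and not amounts of other cell types. In bulk RNA, a change in every cell and a change in some of the cells cannot be told apart. The part of these markers in the results was not tested.

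After 6 h of TGFβ1 the lines differed across a large share of their genes. At an FDR under 0.05, 4298 genes (23.1%) were higher and 4772 (25.7%) lower in S134A-GR cells. With a second cutoff, a log2 fold change of 1 or more in either direction, 720 (3.88%) were higher and 851 (4.58%) lower, 1571 (8.46%) in all. These percentages are the background for each gene list, in which higher and lower mean an FDR under 0.05 in that direction. The median log2 fold change of all genes was 0.01. Past a log2 fold change of 2 there were 130 higher and 427 lower genes, past 3 there were 22 and 227, and past 5 only 2 and 65. The steepest differences were thus losses in S134A-GR cells, while counts at the lower cutoff were closer to even. Among the 13229 genes with a mean normalized count of at least 50, 330 were higher and 375 lower past both cutoffs. Of the 9070 genes past the FDR, 8743 had no overlap between the 6 libraries, as had 1518 of the 1571. Absence of overlap, given below for single genes, therefore adds little to a call.

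**Figure D1:**
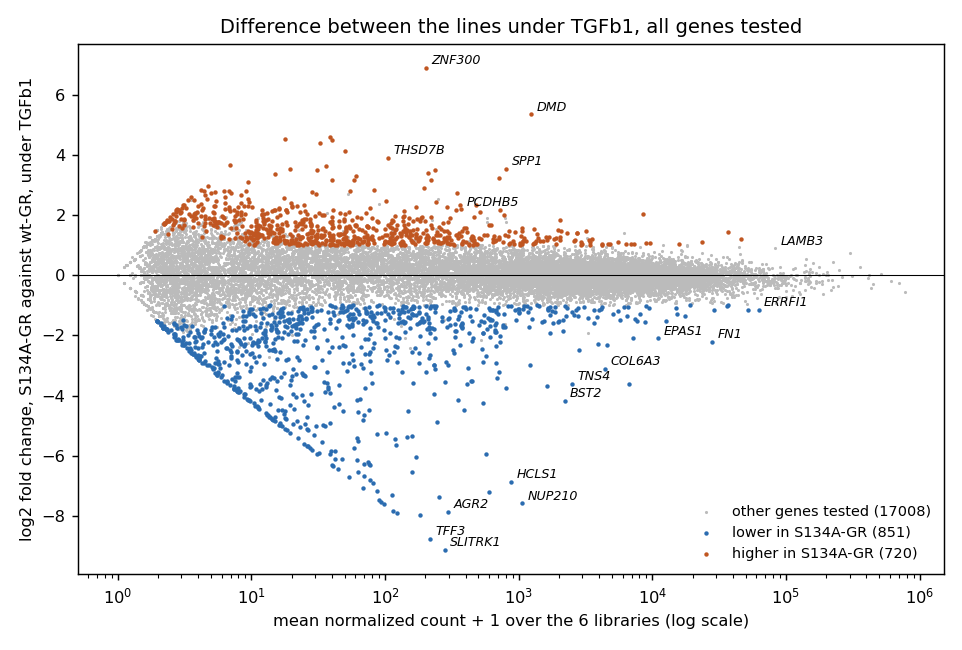
Line difference under TGFβ1 by limma (log2, wt-GR as the reference, vertical axis) for the 18579 genes tested, against the mean normalized count plus 1 of the 6 libraries (log scale). Blue points are the 851 genes lower and orange points the 720 genes higher in S134A-GR cells past both cutoffs. The farthest points lie below 0, and the straight lower left edge is formed by genes at or near 0 reads in S134A-GR cells.

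Several genes were present in wt-GR cells and silent in S134A-GR cells. Of the genes with a mean of at least 50 normalized counts in wt-GR cells, 41 had 3 reads or fewer in each S134A-GR library, and 18 of them had 0 reads in all 3. No gene met the reverse condition, although ZNF300, described below, came near it. The largest loss was in SLITRK1, a synaptic adhesion protein, with 579.9, 549 and 549.96 in the wt-GR libraries and no S134A-GR read, at least 184-fold lower. EMB, an adhesion glycoprotein of the immunoglobulin family, had 213, 218 and 294 normalized counts in the wt-GR libraries and was listed at 0 in the S134A-GR libraries, at least 79.7-fold lower with 3 reads per library as the floor. PNPLA4, a lipid hydrolase, had 254, 206 and 224 and 0 in every S134A-GR library, at least 75.1-fold lower. ASRGL1, an asparaginase, had 179.97, 196 and 204 against 0, at least 63.6-fold lower. In these 4 genes every wt-GR library held well over 100 normalized counts and no S134A-GR library held a read.

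LDOC1, a gene of retroviral origin on chromosome X, was at least 60.4-fold lower, and ESM1, a secreted proteoglycan of endothelial cells and tumors, at least 58.5-fold lower, both with 0 S134A-GR reads. The arachidonic acid epoxygenase CYP2J2 also had no S134A-GR read and was at least 44.3-fold lower. NKX2-1, a lung and thyroid homeobox factor, had 257, 198 and 215 normalized counts in wt-GR libraries and 1.9, 0 and 0 in S134A-GR libraries, where only 2 reads fell on it in all. Its neighbours on chromosome 14, SFTA3 and NKX2-8, were at 0 reads in S134A-GR cells and had 86.8 ± 6.39 and 59.9 ± 1.27 in wt-GR cells, and these neighbours were named after their values were seen. GRAMD1B, a cholesterol carrier between membranes, had 421, 345 and 318 against 1.9, 0 and 0, and NYNRIN, a gene with a retroviral integrase domain, had 549, 469 and 500.1 against 6.66, 0 and 2.86. NUP210, a ring protein of the nuclear pore, had 2112, 2186 and 2024 against 5.71, 12.1 and 14.3, or −7.57 on the log2 scale (SE 0.364, adjusted p = 1.17e-09, limma). None of these genes had overlapping libraries, which the naming rule required of the largest changes, so this is no added support.

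Genes that were far higher in S134A-GR cells were fewer. ZNF300, a KRAB zinc finger repressor, had 2.22, 1.46 and 4.07 normalized counts in wt-GR libraries and 386, 436 and 386 in S134A-GR libraries. Its wt-GR values were near the read floor, and only wt-GR TGFβ1 replicate 3 exceeded the level of 3 reads, which was 3.06 normalized counts there. DMD, which encodes dystrophin, the link between actin and the membrane, had 61.1, 53.5 and 61.1 against 2626, 2282 and 2358, or 5.35 on the log2 scale (SE 0.136, adjusted p = 3.7e-12, limma). THSD7B, a protein with thrombospondin repeats, had 11.1, 10.3 and 15.3 against 185, 212 and 188, or 3.91 on the log2 scale. All S134A-GR libraries of these genes stood far above the wt-GR libraries. The secreted phosphoprotein osteopontin (SPP1) had 133, 129.6 and 121 against 1528, 1537 and 1383, and the antisense transcript LYPLAL1-AS1 37.8, 37.3 and 31.6 against 369.96, 410.05 and 372. FAM19A2, a chemokine-like secreted protein, the orphan receptor GPR78 and the zinc finger gene ZNF154 had log2 fold changes of 3.29, 3.17 and 3.16. IGFN1, a muscle protein with immunoglobulin domains, spread more, from 778, 1320.3 and 1769.8 in S134A-GR cells against 127, 111 and 155 in wt-GR cells, without overlap.

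A few of the largest fold changes rest on libraries that disagree within a group. NMRAL1, a redox sensor, had 31.1, 27.8 and 44.8 normalized counts in wt-GR and 284, 281 and 755 in S134A-GR libraries, with 1 S134A-GR library far above the other two. BFAR, an apoptosis regulator, had 24.4, 29.3 and 38.7 against 622, 48.6 and 405, and MROH6 2.22, 35.2 and 48.9 against 183, 86.1 and 133. HRAS, the GTPase, had 247, 703 and 1327 against 118, 29.4 and 33.6. In each of these genes the libraries of at least 1 line spread widely, so the size of the difference is uncertain although the groups do not overlap. The MROH6 call was lost with DESeq2 and without wt-GR TGFβ1 replicate 1 or S134A-GR TGFβ1 replicate 1 or 3 (adjusted p = 0.054, 0.14, 0.0728 and 0.0637). 

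**Figure D2:**
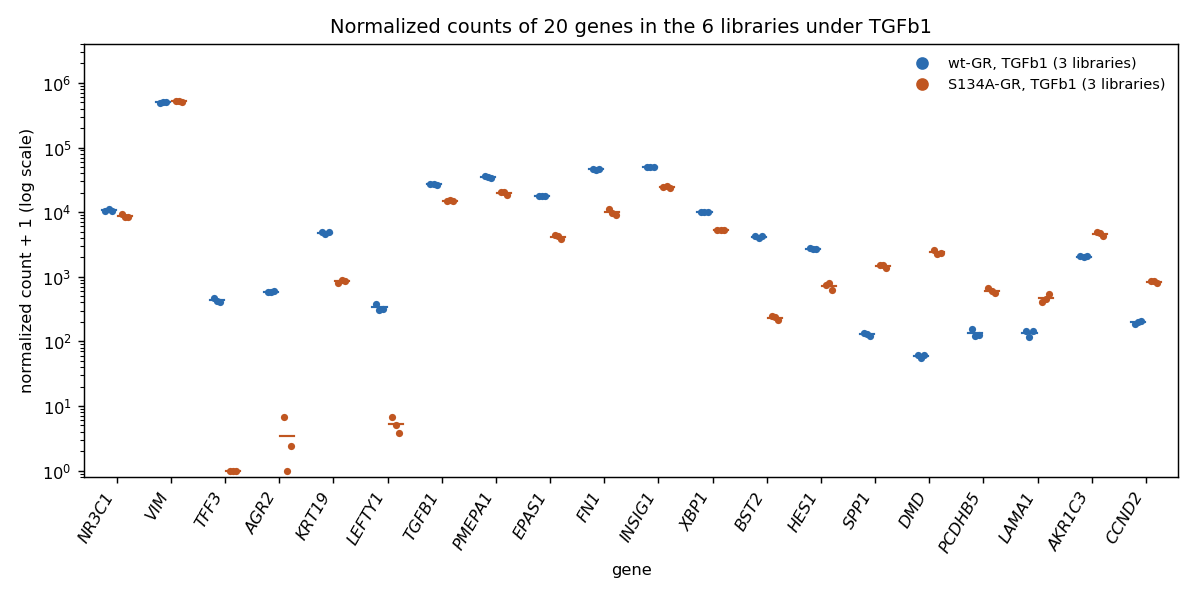
Normalized count plus 1 (log scale) of 20 genes in each of the 3 wt-GR (blue) and 3 S134A-GR (orange) libraries under TGFβ1, with short lines at the group means. VIM is the highest in both lines, TFF3 is at 0 in all 3 S134A-GR libraries, and the orange points of DMD lie far above its blue points.

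Most of the difference between the lines was also there without TGFβ1. Under vehicle 1767 genes (9.51%) differed past both cutoffs, and 1070 genes were past them under both treatments, which is 68.1% of the genes under TGFβ1 and 60.6% of those under vehicle. In 1067 of them the direction was shared. Of the 1571 genes under TGFβ1, 1491 (94.9%) had the same sign under vehicle. ESM1, for example, had 146, 182 and 206 normalized counts in wt-GR cells under TGFβ1 and 79.8, 81.4 and 89.5 under vehicle. Another 501 genes were past both cutoffs under TGFβ1 and not under vehicle, but for only 5 of them did the size of the line difference itself differ between treatments at an FDR under 0.05.

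That difference of differences, the line effect under TGFβ1 minus that under vehicle, passed an FDR of 0.05 by limma in 77 genes (0.414%), 31 positive and 46 negative, with 1728 at an unadjusted p under 0.05. Its count depends on single libraries. Without wt-GR TGFβ1 replicate 1 it was 22, without wt-GR vehicle replicate 2 it was 27, and without wt-GR vehicle replicate 3 it was 166, with 10 of the 12 libraries moving it by over 1.5 times. Genes of the TGFβ pathway were among the 77. PMEPA1, which TGFβ induces and which binds SMADs to damp the pathway, had 36441, 35409 and 33922 normalized counts in wt-GR and 20685, 20344 and 18576 in S134A-GR cells under TGFβ1, against 5093, 4588 and 4487 and 4369.7, 4528 and 4204 under vehicle. The lines were close under vehicle and did not overlap under TGFβ1, and the line effect moved by −0.72 (adjusted p = 0.000909). SNAI1, a repressor of epithelial genes, had 1546, 1437 and 1632 against 792, 779 and 676 under TGFβ1, and its line effect moved by −0.81 (adjusted p = 0.00717). JUNB, an AP-1 factor, had 10726, 10519 and 9968 against 5643, 6233 and 5783 under TGFβ1, with a change of −0.92 (adjusted p = 0.00164).

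**Figure D3:**
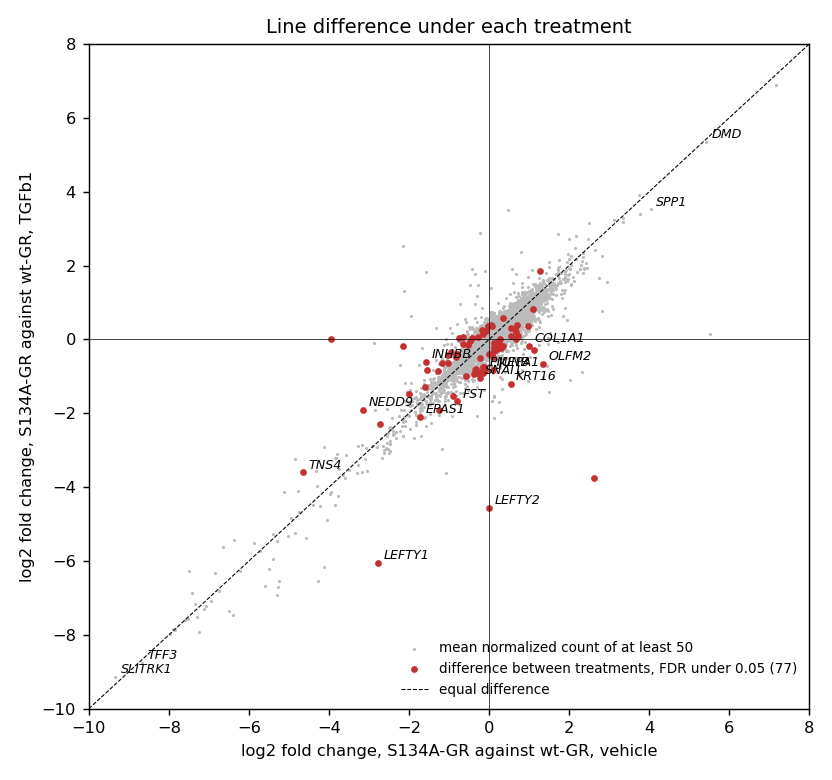
Line difference (log2, wt-GR as the reference) under TGFβ1 (vertical) against that under vehicle (horizontal), for genes with a mean of at least 50 normalized counts in grey and the 77 genes whose line effect differs between treatments at an FDR under 0.05 in red. Most genes lie along the dashed line of equal difference, and LEFTY1, LEFTY2 and OLFM2 lie far below it.

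The TGFβ family ligands were split. Of 18 ligands tested, 5 were higher and 7 lower in S134A-GR cells (2 and 3 past both cutoffs), with a median log2 fold change of −0.31 (−0.51 to −0.12 over the other settings). TGFB1 itself, which the cytokine induces, had 27249.7, 26773 and 26419 normalized counts in wt-GR and 14879, 15415 and 14697 in S134A-GR libraries, without overlap. TGFB2 was lower (log2 fold change −0.57) and TGFB3 higher (0.72). LEFTY2, which with LEFTY1 blocks the signal of Nodal, had 119, 96.7 and 139.5 against 1.9, 10.1 and 2.86, and LEFTY1 had 375, 307 and 321 against 5.71, 4.05 and 2.86. Every wt-GR library exceeded every S134A-GR library for both, and since the pair is close in sequence, reads may be shared between them. BMP2, a bone morphogenetic protein, was higher, with 49.99, 48.3 and 78.4 against 263, 269 and 303. INHA, an inhibin subunit, was higher (2.00), while the activin subunits INHBB (−0.60) and INHBE (−1.05) were lower.

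Among 13 genes listed as latent TGFβ binders and activators, 4 were higher and 5 lower. Of the LTBP family of matrix proteins, LTBP2 (1.06) and LTBP4 (0.39) were higher. LTBP3, which had 8977, 7776 and 8057 against 3365, 4650.3 and 3947, and LTBP1 (−0.67) were lower. Storage of the latent cytokine was not measured. ITGB8, the integrin chain that frees the cytokine, had 71.1, 93.7 and 67.2 against 238, 195 and 189.6 and was higher, while its partner ITGAV (−0.50) and the processing protease FURIN (−0.49) were lower. Neither LTBP3 nor ITGB8 had overlapping libraries.

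Receptors and SMADs held both higher and lower genes. Of 15 receptors, 3 (20%) were higher and 5 (33.3%) lower, near the shares of all genes (23.1% and 25.7%). None was past both cutoffs, against 8.46% of all genes, and the median was −0.06. TGFBR2, the ligand-binding receptor, had 60696, 60867 and 60731 normalized counts in wt-GR and 62423, 60290.3 and 60483 in S134A-GR cells (adjusted p = 0.881), which overlap. TGFBR1, its signaling partner, was slightly lower (−0.24). BMPR1B (0.92) and the coreceptor ENG (0.32) were higher, and TGFBR3 (−0.75), ACVR1 (−0.53) and BMPR2 (−0.37) were lower. Of 8 SMAD genes SMAD1 (0.30) was higher, a call lost without wt-GR TGFβ1 replicate 3 (adjusted p = 0.0646), SMAD3 (−0.34) and SMAD6 (−0.40) were lower, and SMAD2, SMAD4 and the inhibitory SMAD7 did not pass the FDR, with log2 fold changes of −0.06, 0.00 and −0.01. Of 13 feedback and corepressor genes 3 were higher and 4 lower. BAMBI, a decoy receptor, was higher (0.88) and the corepressor SKI lower (−0.55). Of 12 extracellular BMP and activin antagonists 4 were higher (2 without wt-GR or S134A-GR TGFβ1 replicate 2) and 3 lower. The activin trap FST had 1099.8, 1148 and 1235 against 340.5, 376 and 376, lower in every S134A-GR library, and NOG, a BMP trap, was higher (0.64). Of the 4 ID genes, BMP targets that block differentiation factors, ID2 (−0.86) was lower. ID3 (−0.31) was lower too, but its call was lost with the TGFβ1 libraries alone and without wt-GR vehicle replicate 2, wt-GR TGFβ1 replicate 1 or 2, S134A-GR vehicle replicate 3 or S134A-GR TGFβ1 replicate 2 (adjusted p = 0.101, 0.0501, 0.112, 0.0883, 0.0514 and 0.196).

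Of 29 TGFβ1 target genes 5 were higher and 20 lower in S134A-GR cells, 3 and 8 past both cutoffs, with a median log2 fold change of −0.41 against 0.01 over all genes, or −0.27 relative to the median of each gene's chromosome. Under vehicle the same list had a median of −0.13. For 5 of its genes, PMEPA1, JUNB, SNAI1, COL1A1 and NEDD9, the line effect differed between treatments, against 0.414% of all genes tested. The study had already named JUNB, SNAI1 and COL1A1 from these libraries, so this count is not independent evidence. NEDD9 went the other way from the rest, with a line difference of −3.14 under vehicle and −1.90 under TGFβ1. The target list also overlaps with one used on these data before. MMP9, a gelatinase, had 168, 168 and 176 normalized counts in wt-GR and 31.4, 23.3 and 36.5 in S134A-GR libraries, and PDGFB, a growth factor of stromal cells, 3757, 3620.5 and 3835 against 1412, 1553 and 1504. In both the wt-GR libraries were all higher. ACTA2, smooth muscle actin, ran the other way, with 42.2, 27.1 and 28.5 against 64.7, 69.9 and 113.

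The p38 MAPK module had 9 of 33 genes higher and 14 lower, none higher and 3 lower past both cutoffs. MAP3K5 (ASK1), the stress-sensing kinase at the top of the cascade, had 1556, 1752 and 1629.5 normalized counts in wt-GR and 799.8, 792 and 718 in S134A-GR cells, or −1.09 on the log2 scale (SE 0.0689, adjusted p = 1.64e-08, limma). MAP2K6 (MKK6), a kinase directly above p38, had 138, 137 and 114 against 55.2, 40.5 and 34.3, the largest of these differences at −1.58, and MEF2C, a transcription factor that p38 phosphorylates, had 314, 277 and 291 against 174, 155 and 114. All 3 were lower in every S134A-GR library. The downstream kinase RPS6KA4 (MSK2, −0.58), ATF2 (−0.51) and MKNK2 (−0.47) were lower by less, and MAPK11, which encodes p38β (0.81), the MAP2K6 relative MAP2K3 (MKK3), with far more reads (0.40), TAB3 (0.49), TXN, the thioredoxin that holds ASK1 inactive (0.33), and TAOK3 (0.30) were higher. GADD45G, an activator of the cascade, was higher (0.85), though past the FDR no longer without wt-GR TGFβ1 replicate 1 or 3 or S134A-GR TGFβ1 replicate 1 or 2 (adjusted p = 0.0593, 0.0567, 0.0606 and 0.0861). Of 23 dual specificity phosphatases, which switch MAP kinases off, 2 were higher and 6 lower, with DUSP6 (−0.47) and DUSP4 (−0.32) lower. DUSP1, also a GR target, was at −0.15, past the FDR no longer without wt-GR TGFβ1 replicate 1 or 3 or S134A-GR TGFβ1 replicate 1 or 3 (adjusted p = 0.0541, 0.0852, 0.0764 and 0.0561).

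Of 7 genes of 14-3-3 proteins, which dock on phosphorylated serines, none was higher and 4 were lower at an FDR under 0.05 by limma. YWHAQ had 49116, 51193 and 46940.5 against 31883, 29647 and 28684, lower in every S134A-GR library, and YWHAG, YWHAH and YWHAB had log2 fold changes of −0.30, −0.27 and −0.27. YWHAZ, the 14-3-3ζ gene that the study follows, had 195948, 208201 and 197566 against 210362, 197617 and 190123, which overlap. YWHAE had 8371, 680.3 and 7624 against 429.9, 1080.3 and 1684, with values several-fold apart within a group, and passed the FDR only without wt-GR vehicle replicate 3 or wt-GR TGFβ1 replicate 2 (adjusted p = 0.042 and 0.0244).

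Of 17 genes for GR and its chaperones and coregulators 3 were higher and 6 lower. The mineralocorticoid receptor NR3C2 (0.81) and the immunophilin FKBP4 (0.39) were higher, and HSPA8 (−0.41), STIP1 (−0.40) and the coactivator NCOA1 (−0.34) were lower. With no GR ligand added, 7 of 24 classical glucocorticoid target genes (29.2%) were higher and 8 (33.3%) lower, against 23.1% and 25.7% of all genes. The median of the list was −0.07, and 2 genes in each direction were past both cutoffs. ERRFI1, an inhibitor of EGF receptor signaling, had 86386, 85702 and 85178 normalized counts in wt-GR and 38427, 40000.5 and 37874 in S134A-GR cells, and DDIT4, an inhibitor of mTOR, 43634, 41968 and 41507 against 23338, 25723 and 19252. Both were lower in every S134A-GR library. TFCP2L1 (−1.07) and BIRC3 (−0.82) were lower as well, TSC22D3, the GR target GILZ, was lower (−0.58), and TNFAIP3, an NF-kB inhibitor, was higher (0.77). PER1 was higher (0.60) and FKBP5 did not pass the FDR (−0.05). TSC22D3 and PER1 were named after their values were seen. Of 12 genes listed around GR Ser134, 1 was higher and 7 were lower. The higher one, MET (0.38), is the receptor of HGF and is not named in the study's text. Among the lower ones were AHR (−0.53) and EPAS1 (HIF-2α), which had 17959, 17750.1 and 17885 against 4479.5, 4228 and 3841. PTK6, the kinase Brk, had 2269.8 ± 173 and 2641 ± 323 (adjusted p = 0.0507), and passed the FDR in 6 of the 21 other settings. Apart from MET the list was drawn from what the study reports on these cells, so its direction is not independent evidence.

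Several transcription factors set the lines apart. SPDEF, an ETS factor of secretory epithelium, had 1069, 998 and 1066 normalized counts in wt-GR and 326, 289.6 and 230.3 in S134A-GR libraries, and of 23 ETS genes 1 was higher and 10 were lower. ETS1 (−0.62) and ETV6 (−0.52) were among these. FOXS1, a forkhead factor, had 554, 542 and 516 against 159.8, 136 and 98.7, and FOXQ1, a forkhead factor tied to EMT, 553, 488 and 498 against 1418, 1359 and 1349.8. SPDEF and FOXS1 were lower and FOXQ1 higher in every S134A-GR library. ZEB2, a repressor of CDH1, was lower, with 1326, 1389.9 and 1325 against 698, 587 and 586, and its relatives ZEB1 (−0.17) and SNAI2 (0.17) differed little. The ZEB1 call was lost without wt-GR TGFβ1 replicate 1 or 2 or S134A-GR TGFβ1 replicate 2 or 3 (adjusted p = 0.05003, 0.0744, 0.0821 and 0.0796) and the SNAI2 call without wt-GR TGFβ1 replicate 3 or S134A-GR TGFβ1 replicate 1 (adjusted p = 0.071 and 0.0639). Of 40 nuclear receptors other than GR 7 were higher and 13 lower. The orphan receptors NR2F1 and NR2F2 parted, the first at 2294, 2223 and 2242 against 1149, 1004 and 987 and the second at 12741, 12251 and 11919 against 21855, 20069 and 21757. ARNT2, a partner of AHR and HIF proteins, was lower (−1.71). Among 20 HOX genes 7 were higher and 2 lower, led by HOXB4 (1.27) and HOXC8 (0.60), but without any 1 of the 6 TGFβ1 libraries only 3 or 4 were higher. Of 478 genes of the ZNF series 146 were higher and 85 lower, 18 and 15 past both cutoffs. KLF8, a repressor linked to EMT, had 25.6, 41.0 and 37.7 against 0, 3.04 and 4.29 and was named after its values were seen.

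Keratins were more often lower than higher in S134A-GR cells. Of 24 keratins 1 was higher and 14 lower, and 9 of these were past both cutoffs, with a median log2 fold change of −0.63 (−0.93 to −0.31 over the other settings, which had 6 to 10 past both cutoffs). KRT19, of simple epithelium, had 4916, 4507 and 4989 normalized counts in wt-GR and 803, 900.1 and 855 in S134A-GR libraries, KRT79 1313, 969.6 and 1265 against 118, 186 and 167, and KRT17 222, 187 and 181 against 32.3, 32.4 and 33.6. In all 3 keratins no S134A-GR library reached a wt-GR library. KRT8 (−0.20) and KRT18 (−0.35), the most abundant pair, were lower by much less. KRT16 was lower under TGFβ1 (−1.19), with 55.4, 64.5 and 64.2 and 107, 90.2 and 74.8 in wt-GR and S134A-GR cells under vehicle, and its line effect moved by −1.74 (adjusted p = 0.0473), a call kept in only 7 of 20 other settings.

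Of the 5 trefoil factor and AGR genes, which serve mucus secretion, 4 were lower. AGR2, a disulfide isomerase of secretory cells, had 571, 586 and 604 normalized counts in wt-GR and 5.71, 0 and 1.43 in S134A-GR libraries under TGFβ1, and TFF3 had 471, 423 and 404 against 0 in all 3. The wt-GR level of AGR2 under vehicle was 1174 ± 35.6 and under TGFβ1 587 ± 16.5. The mucin MUC5AC had 134.4, 108 and 164 against 0, 2.02 and 0.715, while the membrane mucin MUC1 was higher, with 589.9, 595 and 505 against 1531, 1652 and 1488. All S134A-GR libraries of MUC1 lay above the wt-GR ones. Of the 7 mucins tested 1 was higher, 3 were lower and 3 were not called. Of 22 epithelial junction genes 3 were higher and 5 lower (4 to 7 lower over the other settings). None was higher and 4 (18.2%) were lower past both cutoffs, against 4.58% of all genes. Of 18 claudins 2 were higher and 3 lower. LSR, a receptor that seals tricellular junctions, had 579, 509 and 457 against 28.5, 45.6 and 60.1, CLDN4, a tight junction claudin, 1081, 1032 and 1013 against 285, 333 and 271, and EPCAM, an epithelial adhesion molecule, 918, 1093 and 1043 against 318, 369.6 and 331. The desmosomal cadherin DSC2 was lower too (−1.79), as were JUP (−0.59) and DSP (−0.51), 5 of 13 desmosome genes with 1 higher.

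Protocadherins were more often higher than lower. Of 58 tested, 28 were higher and 6 lower, 18 and 6 past both cutoffs. Their median log2 fold change was 0.49 (0.32 to 0.65 over the other settings, which had 9 to 21 higher past both cutoffs), and 0.59 under vehicle. These adhesion proteins of neurons and epithelia are encoded in clusters on chromosome 5, whose median log2 fold change was −0.06 over genes with a mean of at least 50 normalized counts. PCDHB5 had 157, 121 and 123.2 normalized counts in wt-GR and 663, 601 and 565 in S134A-GR libraries, PCDHB7 122, 135 and 117 against 420.4, 399 and 333, and PCDHB8 128, 143 and 127 against 397, 436 and 335. In each the S134A-GR libraries were all higher, though members of the clusters are alike and some reads may be assigned to the wrong member. PCDH20, outside the clusters, was lower (−2.42). Among 19 cadherins 4 were higher and 6 lower. CDH11, the cadherin of mesenchyme, had 6684, 6505 and 6248 against 1366, 1279.8 and 1321, and CDH13, which is anchored by a lipid, 838, 808 and 777 against 96.1, 64.8 and 55.8. The endothelial cadherin CDH5 was lower (−2.89) and the placental cadherin CDH3 higher, with 159, 162 and 142 against 457, 388 and 434. Synaptic adhesion genes went both ways, 8 of 23 higher and 8 lower (3 lower of 14 under a stricter read filter), with SLITRK6 (1.56) and NLGN3 (1.26) higher and SLITRK1 (−9.13) and CNTN1 (−2.62) lower.

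Laminins were more often higher than lower. Of 12 laminin genes, which build basement membranes, 7 were higher and 3 lower, with a median of 0.58. LAMA1 had 141, 115.7 and 145 normalized counts in wt-GR and 399, 444 and 534 in S134A-GR libraries, LAMA3 2791, 2706 and 2712 against 5839, 5375 and 5633, and LAMB3 56941, 55058 and 61443 against 102962, 109530 and 108684. All 3 were higher in each S134A-GR library. LAMA4 (−1.59) and LAMA5 (−0.79) were lower. LAMA5 was named after its values were seen. Of 41 collagen chains 7 were higher and 12 lower, 3 and 7 past both cutoffs, with a median of −0.04 (−0.39 to 0.03 over the other settings). Of 36 matrix glycoprotein and matricellular genes 7 were higher and 15 lower, with a median of 0.05. COL6A3, a chain of microfibrillar collagen, had 8034, 7963 and 7696 against 1016, 874 and 862, and fibronectin (FN1) 46271, 45651 and 45991 against 11126, 9733 and 9049. The wt-GR libraries were all higher in both. The matricellular protein NOV was higher (1.16). The collagen hydroxylase PLOD2 (−0.92) and the collagen chaperone SERPINH1 (−0.71) were lower.

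Single matrix receptors differed in both directions. Among 26 integrin chains 7 (26.9%) were higher and 9 (34.6%) lower, and 3 (11.5%) and 5 (19.2%) past both cutoffs, against 3.88% and 4.58% of all genes, with a median of −0.06 (−0.30 to −0.04 over the other settings). ITGA7, a laminin receptor chain, had 108, 103 and 91.7 normalized counts in wt-GR and 464, 478 and 503 in S134A-GR libraries. ITGB4, the laminin receptor chain of hemidesmosomes, had 11559, 11476 and 11110.3 against 4093, 4414 and 3414, and ITGB2, the chain of leukocyte integrins, 1252, 1189.98 and 1337 against 133, 110.4 and 112. ITGA7 was higher and ITGB4 and ITGB2 lower in every S134A-GR library. ITGB1, the most abundant chain shared by many integrins, was slightly higher (0.27). Of 19 matrix metalloproteinases 6 were higher and 4 lower, with the collagenase MMP1 at 697, 679.6 and 610.1 against 229, 244 and 215 and the membrane enzymes MMP25 (1.91) and MMP16 (1.01) higher. TIMP3, a metalloproteinase inhibitor held in the matrix, had 11899, 11016 and 11585 against 4839, 4858 and 4522, while TIMP1 was slightly higher (0.25). ADAMTS15, a proteoglycanase, was lower (−1.86), ADAMTS6 higher (1.04), and the sheddase ADAM17 lower (−0.99). Of 18 genes of plasminogen activation 4 were higher and 10 lower, among them the protease receptor F2RL1 with 25929, 25979 and 24407 against 10811, 10069 and 8892. Serpins, protease inhibitors, had 3 of 23 higher and 9 lower, with SERPINA5 (−2.03) and SERPINF1 (−1.67) lower.

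Gene lists of adhesion and motility differed in their counts. Of 15 migration kinases and their ligands 4 were higher and 3 lower, with a median of 0.01. Of 23 scaffold, tensin and focal adhesion genes 3 were higher and 13 lower, and their median of −0.22 became −0.07 once the median of each gene's chromosome was subtracted. TNS4, a tensin of focal adhesions, had 4620.3, 4454 and 4750.1 normalized counts in wt-GR and 325, 402 and 416 in S134A-GR libraries, and PXN (paxillin, 0.45) and SRC (0.40) were slightly higher. Of 32 contractile genes 8 were higher and 13 lower, with TPM2 higher (0.83) and TAGLN (−0.48) and MYLK (−0.48) lower. Of 26 YAP and TEAD genes and targets 7 were higher (4 without wt-GR TGFβ1 replicate 3) and 16 lower, none past both cutoffs, and their median of −0.18 became 0.00 by the same subtraction. YAP1 (−0.69) and WWTR1 (−0.74), the coactivators themselves, were lower. Of 20 Eph receptor and ephrin genes 5 were higher (3 to 5 over the other settings) and 6 lower. Of 31 semaphorins, plexins and neuropilins 8 (25.8%) were higher and 14 (45.2%) lower. EPHA3, an ephrin receptor, had 761, 789 and 691 against 23.8, 36.4 and 40.1, lower in every S134A-GR library, and the semaphorin SEMA3A was higher (1.29) while SEMA3E (−2.26) and SEMA3G (−1.74) were lower.

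PDGF and VEGF genes were more often lower than higher. Of 14 PDGF and VEGF genes 1 was higher and 8 lower, 5 of them past both cutoffs, with a median log2 fold change of −0.92. Over the other settings the median ran from −0.97 to −0.31 and 2 to 6 were lower past both cutoffs, with a median of −0.61 and 3 such genes without S134A-GR TGFβ1 replicate 1. VEGFA, the main vessel growth factor, had 26163, 23755 and 25879 normalized counts in wt-GR and 10681, 13785 and 13642 in S134A-GR libraries, and PGF 5723, 5469.5 and 5593 against 2105, 2213 and 2033. PDGFD was lower (−1.62), and the receptor PDGFRB had 3940.4, 3717 and 4006 against 2179, 2277 and 2041. None of the VEGFA, PGF and PDGFRB libraries overlapped. Of 17 genes of the EGF family 6 were higher and 4 lower. EGF was higher, with 189, 217 and 190.5 against 629, 539.6 and 501, while the ligands TGFA (−1.15) and HBEGF (−0.81) were lower. In the FGF family 7 of 23 were higher (4 without S134A-GR TGFβ1 replicate 3) and 3 lower, and FGF1 (−0.75) and FGFR1 (−0.40) were lower. Of 46 Wnt genes 8 were higher and 13 lower, with the coreceptor LRP5 at 22465, 21492 and 21552 against 9569, 8749 and 8259 and the ligand WNT5B at −0.91. Of 24 Notch genes 4 were higher and 11 lower. HES1, the repressor that Notch induces, had 2744, 2722 and 2699.9 against 746, 792 and 629, and LFNG (−0.91) and HEY1 (−0.87) were lower while HES7, with 389.9, 360.3 and 409 against 818, 894 and 989, was higher.

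Interferon-stimulated genes were more often lower than higher. Of 46 interferon-stimulated genes 9 were higher and 23 lower, 1 and 7 past both cutoffs, with a median of −0.17 (−0.25 without S134A-GR TGFβ1 replicate 2). BST2 (tetherin), which holds budding viruses at the membrane, had 4296, 3962 and 4275 normalized counts in wt-GR and 242, 239.96 and 211 in S134A-GR libraries, MX2 299, 343 and 267 against 88.4, 127 and 118, and EPSTI1 179, 129 and 162 against 70.4, 61.8 and 46.5. All were lower in each S134A-GR library. RSAD2 (−2.34), IFIT1 (−0.98), IFIT2 (−1.21) and OAS1 (−1.02) were lower, and IFI44L (1.01), IFI6 (0.63) and OAS3 (0.50) higher. These genes, given by log2 fold change, were named after their values were seen. The 300-base promoter of BST2 (RefSeq, GRCh38.p14, chr19:17405581-17405880, minus strand) is printed because BST2 was the member with the largest difference, and capitals mark the matches to GAAA repeated after any 2 bases, letters of the interferon response element, searched on both strands, where 2 matches overlap.
BST2 promoter: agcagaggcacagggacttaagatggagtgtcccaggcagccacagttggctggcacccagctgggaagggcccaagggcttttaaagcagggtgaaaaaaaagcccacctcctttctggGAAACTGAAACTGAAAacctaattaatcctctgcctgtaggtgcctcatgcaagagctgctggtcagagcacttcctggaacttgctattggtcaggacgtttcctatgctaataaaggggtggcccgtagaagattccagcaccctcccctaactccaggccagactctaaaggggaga
The letters occurred in 24 of the 35 promoters of the list that the reference holds (68.6%), against 3.65% of all 27305 promoters. They occurred in 12 of 17 lower genes and in 12 of 18 others, so the match did not separate the lower genes from the rest. A match is a description of the letters and not a site of binding.

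Receptors of cytokines differed by gene. IL2RB, a chain of the interleukin 2 receptor, had 799.9, 803 and 858 normalized counts in wt-GR and 78.0, 79.0 and 55.8 in S134A-GR libraries, and the decoy receptor IL13RA2 14085, 15880.5 and 15119.9 against 35179, 32073 and 29304. The first was lower and the second higher in every S134A-GR library. Of 35 TNF family genes 8 were higher and 9 lower. TNFSF15 (1.95), TNFRSF1B (1.30) and the death receptor FAS (0.96) were higher, and the osteoclast inhibitor TNFRSF11B (−1.12) and the death ligand TNFSF10, with 147, 132 and 162 against 54.2, 59.7 and 40.8, were lower. Of 24 interleukins 2 were higher and 5 lower, with IL1B (−0.73) and IL16 (−1.28) lower, and of 32 chemokine genes 6 were higher and 5 lower, with ACKR3, a scavenging receptor, higher (1.68) and CXCL16 lower (−1.68). Of the chemokine genes 2 or 3 were lower without wt-GR TGFβ1 replicate 1 or 3 or S134A-GR TGFβ1 replicate 1 or 2, and CXCL1 (−1.19) was not past the FDR without wt-GR TGFβ1 replicate 1 or 3 or S134A-GR TGFβ1 replicate 1 (adjusted p = 0.0787, 0.0722 and 0.118). In antigen presentation 2 of 24 genes were higher and 3 lower. NLRC5, the activator of class I genes, was higher (0.99).

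Lists of lipid, sugar and hypoxia genes held more lower than higher genes. Of 27 cholesterol synthesis genes 3 were higher (1 without wt-GR TGFβ1 replicate 2) and 18 lower, with a median log2 fold change of −0.39. INSIG1, the sterol sensor's anchor, had 49094, 49060 and 49277 normalized counts in wt-GR and 24251, 25479.7 and 23983 in S134A-GR libraries, and SC5D, a late enzyme, 4584, 5352 and 5302 against 2364, 2279 and 2199. In both the S134A-GR libraries were lower without overlap. HMGCS1 (−0.75), named after its values were seen, was lower too. Of 37 fatty acid and triglyceride genes 4 were higher and 20 lower. The desaturases SCD, with 230869, 235284 and 226196 against 152907, 152643 and 138502, and FADS2 (−0.97) were lower, as was the fatty acid carrier FABP5 (−2.94). Of 25 glycolysis genes 6 were higher and 15 lower, none past both cutoffs. LDHA, which makes lactate, had 256441, 258070 and 244796 against 187582, 186693 and 171183, and the glucose carrier SLC2A1 (−0.33) and GAPDH (−0.26) were lower. Of 30 hypoxia response genes 7 were higher and 19 lower, with ADM (−1.10), a vasodilator peptide, lower and BHLHE41, a clock repressor, higher (0.82). Oxidative phosphorylation genes were nearer to balance, with 16 of 87 higher and 29 lower and a median of −0.03.

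Genes of the unfolded protein response were lower almost throughout. Of 26 ER stress genes 3 were higher and 21 lower, 1 of them past both cutoffs, with a median of −0.38, or −0.33 relative to the median of each gene's chromosome. HYOU1, a chaperone of the endoplasmic reticulum, had 48787, 47027 and 49157 normalized counts in wt-GR and 24402, 24016 and 23535 in S134A-GR libraries, DNAJC3, a cochaperone that restrains a stress kinase, 6177, 6198 and 6410.1 against 3315, 3037 and 3051, and PDIA6, a disulfide isomerase, 44886, 43654 and 44472 against 24647, 23640.1 and 22381. XBP1, a transcription factor of this response, had 10200.4, 9917 and 10114 against 5336, 5376 and 5349. Each of the 4 genes was lower in every S134A-GR library. The promoters of XBP1 (RefSeq, GRCh38.p14, chr22:28800520-28800819, minus strand) and CRELD2 (chr22:49918384-49918683, plus strand) are printed because both hold the letters of the ER stress element, CCAAT and CCACG with any 9 bases between, searched on both strands and set in capitals. CRELD2, a disulfide isomerase, had a log2 fold change of −0.45 and was named after its values were seen.
XBP1 promoter: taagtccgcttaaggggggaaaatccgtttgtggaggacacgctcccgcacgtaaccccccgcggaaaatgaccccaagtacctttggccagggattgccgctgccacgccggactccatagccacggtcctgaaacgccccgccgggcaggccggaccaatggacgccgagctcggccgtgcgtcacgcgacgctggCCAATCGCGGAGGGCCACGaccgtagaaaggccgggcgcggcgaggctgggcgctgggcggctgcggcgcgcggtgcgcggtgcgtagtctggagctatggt
CRELD2 promoter: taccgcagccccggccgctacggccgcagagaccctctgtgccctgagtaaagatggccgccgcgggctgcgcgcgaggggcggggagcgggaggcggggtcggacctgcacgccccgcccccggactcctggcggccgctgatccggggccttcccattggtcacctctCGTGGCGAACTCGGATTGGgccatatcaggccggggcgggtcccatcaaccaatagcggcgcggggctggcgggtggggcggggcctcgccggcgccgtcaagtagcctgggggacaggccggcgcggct
The letters occurred in 6 of the 25 promoters of the list in the reference (24.0%), against 0.0806% of all 27305 promoters. They occurred in 5 of the 20 lower genes and in 1 of the 5 others, and not in HYOU1, DNAJC3 or PDIA6, so here too the match did not separate the lower genes from the rest. In CRELD2 the match is on the other strand, so the capitals read as the reverse complement.

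The amino acid response showed the same direction, with 4 of 40 genes of ATF4 and this response higher (2 without wt-GR TGFβ1 replicate 2) and 26 lower and a median of −0.26. ASNS, asparagine synthetase, had 5279, 5703 and 5463 normalized counts in wt-GR and 2484, 2428 and 2379.9 in S134A-GR libraries, and SLC1A4, a neutral amino acid carrier, 765, 755 and 778 against 263, 236 and 229.6. Both were lower without overlap. NUPR1 (−1.28) and SLC7A5, the large neutral amino acid carrier (−0.56), were lower as well. Of 36 amino acid transporters 5 were higher and 16 lower (2 or 3 higher without wt-GR TGFβ1 replicate 1 or 3 or S134A-GR TGFβ1 replicate 3), and of 298 other solute carriers 56 were higher and 100 lower.

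Genes of redox and drug metabolism were split. Of 27 NRF2 targets 10 were higher and 11 lower and 3 of the higher ones were past both cutoffs. AKR1C3, an aldo-keto reductase that acts on steroids, had 2069.6, 1987 and 2089.9 normalized counts in wt-GR and 4965, 4689.7 and 4215 in S134A-GR libraries, higher in each of the latter, and AKR1C1 (2.33) and AKR1C2 (1.58) were higher too, although reads of these near-identical genes may be shared. The glutathione transferase GSTP1 had 10816, 10667 and 11299.7 against 3925, 4153 and 3969, lower in every S134A-GR library, and GSTM1 was lower (−2.67), while the secreted peroxidase GPX3 was higher, with 12906, 11910 and 12105 against 24533, 24173 and 22723. Of 32 cytochrome P450 genes 6 were higher and 8 lower, with CYP27A1, a sterol hydroxylase, lower (−2.40) and CYP2E1 higher (1.46). Of 8 metallothioneins 3 were higher and 1 lower, and MT2A was at 0.28, past the FDR no longer without S134A-GR TGFβ1 replicate 3 (adjusted p = 0.0605).

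Genes of division stayed near the background. Of 42 cell cycle genes 9 were higher and 8 lower, and of 37 DNA replication genes 12 were higher and 11 lower, with medians of 0.03 and 0.01. MKI67, a marker of cycling cells, was slightly higher (0.47), a call lost without wt-GR TGFβ1 replicate 1, 2 or 3 or S134A-GR TGFβ1 replicate 1 or 3 (adjusted p = 0.06, 0.0501, 0.0576, 0.0742 and 0.0694). HMMR, a spindle and hyaluronan-binding protein, had 864, 967 and 982 normalized counts in wt-GR and 396, 434 and 422 in S134A-GR libraries. CCND2, a G1 cyclin, had 188, 196 and 205 against 870.2, 844 and 789, higher in every S134A-GR library, while CCND1, the G1 cyclin with more reads, was lower (−0.43), as were RB1 (−0.61) and CDKN1A (−0.35). Of 21 BCL2 family genes 3 were higher and 9 lower, with the survival gene BCL2A1 at −2.75 and the death genes BMF (−0.68) and PMAIP1 (−0.50) also lower. Of 84 cytosolic ribosomal protein genes 8 were higher (5 without wt-GR TGFβ1 replicate 2) and 39 lower, none past both cutoffs, with a median of −0.10. Of 46 proteasome genes 13 were higher and 16 lower. Of 20 clock genes 10 were higher and 5 lower, with DBP (0.62) higher and BHLHE40 (−0.66) lower. Heat shock genes were balanced, 21 of 70 higher and 23 lower, and HSPB8 (1.40) and HSPA2 (1.15) were higher.

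**Figure D4:**
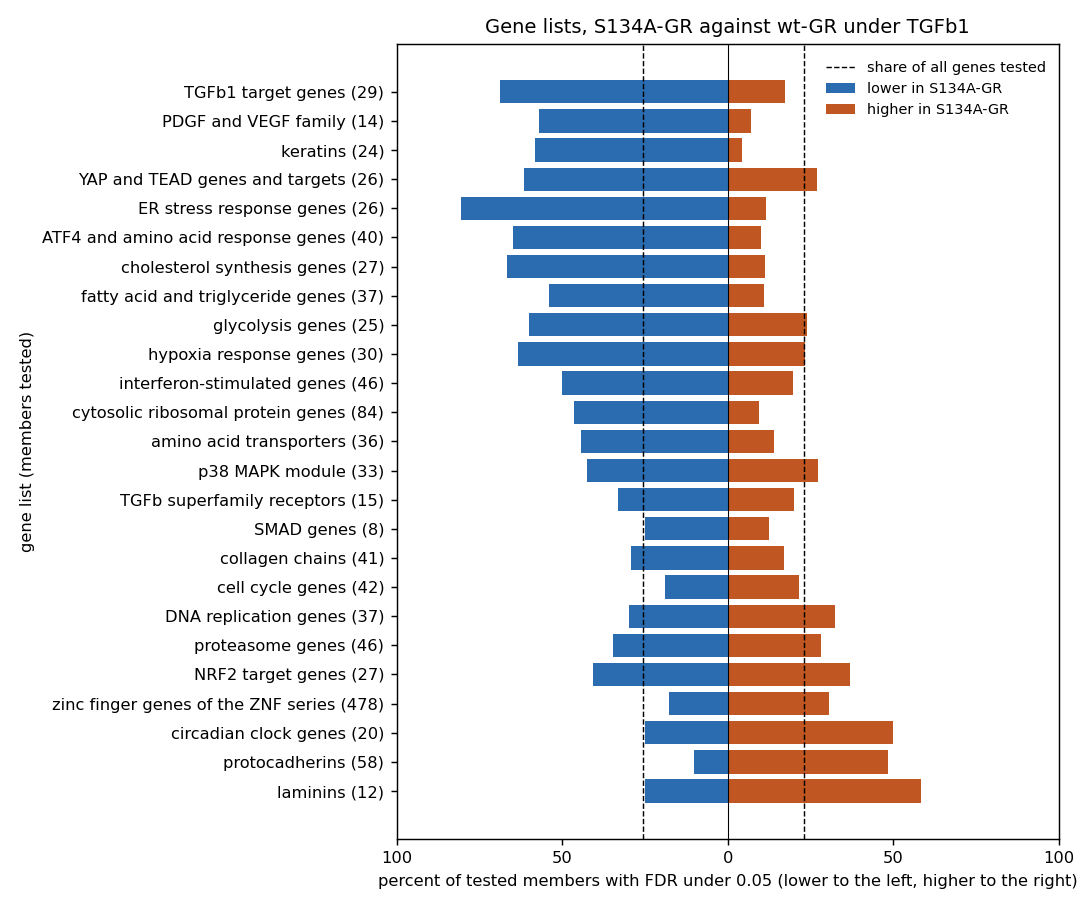
Percent of the tested members of 25 gene lists that were lower (blue, to the left) or higher (orange, to the right) in S134A-GR cells under TGFβ1 at an FDR under 0.05, with dashed lines at the shares of all genes, 25.7% lower and 23.1% higher. The 25 lists were picked for display from 104 after their values were seen. ER stress, TGFβ1 target and cholesterol lists reach farthest to the left, and laminins, clock genes and protocadherins farthest to the right.

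Gene sets named for the spread of MDA-MB-231 to bone and lung also differed. Of 13 bone metastasis genes 3 were higher and 8 lower, with SPP1 and PTHLH higher and FST, MMP1 and TNFRSF11B lower. Of 23 lung metastasis genes 5 were higher and 13 lower. These counts pool members whatever their direction in metastatic cells, so they do not give a direction for metastasis. RARRES3 was lower (−1.76) and ADIRF, a fat cell factor, higher, with 113, 105 and 83.5 against 185, 250.1 and 278. CD82, a tetraspanin that suppresses metastasis, had 19092, 18094 and 19645 normalized counts in wt-GR and 6492, 6731 and 6450.2 in S134A-GR libraries, without overlap. Among 27 tetraspanins 7 were higher and 10 lower, and TSPAN8 had 113, 144 and 114 against 0, 0 and 1.43.

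The difference between the lines also followed position in the genome. The median log2 fold change of genes with a mean of at least 50 normalized counts was −0.48 on chromosome 13, −0.38 on chromosome 11 and −0.27 on chromosome 2. It was 0.27 on chromosome 9, 0.20 on chromosome 4 and 0.18 on chromosome 10. Under vehicle the same chromosomes had −0.54, −0.36, −0.31, 0.26, 0.16 and 0.17. On chromosome 11, 53.7% of the genes tested were lower at an FDR under 0.05 and 6.56% higher, and YAP1, RPS3 (−0.73), HYOU1, LDHA and GSTP1 lie there. Over 476 windows of 25 neighbouring genes the window medians ranged from −0.75 to 0.60, with 44 windows at −0.3 or lower and 17 at 0.3 or higher. Positions were known for 16578 of the genes tested (89.2%). DNA copy number was not measured, and its part in these differences was not tested.

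**Figure D5:**
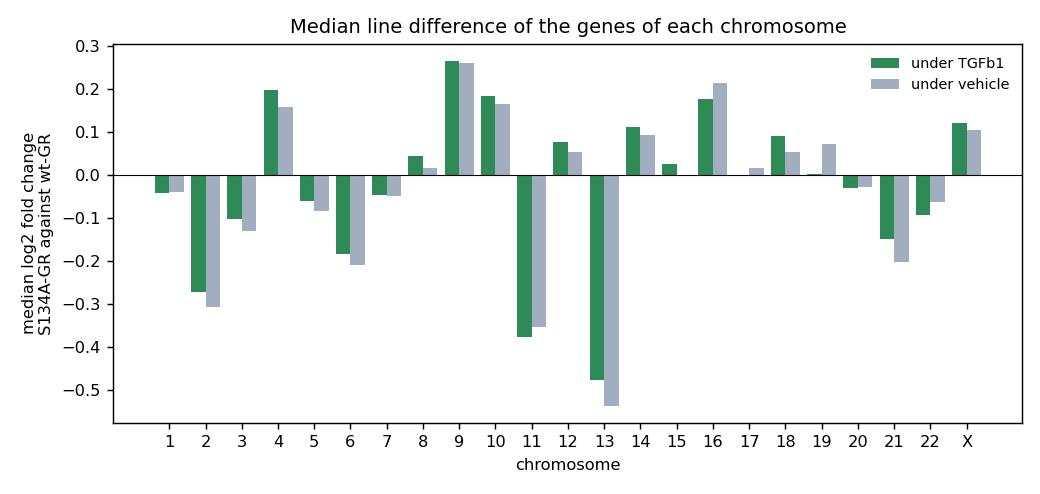
Median line difference (log2, wt-GR as the reference) of the genes of each chromosome with a mean of at least 50 normalized counts, under TGFβ1 (green) and vehicle (grey). Chromosome 13 lies lowest and chromosome 9 highest under both treatments, and the paired bars are of similar height.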

How the data were processed

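RNA of 12 libraries was sequenced in 75-base pairs. The deposited signal is a normalized count per gene symbol, which the authors made with Trimmomatic, HISAT2 on hg38, featureCounts of Subread and DESeq2 1.22.2 size factors, after FastQC 0.11.7. Other versions and the annotation are not given in the sources used here. Each library's values could be divided by 1 step to whole reads (100% of them, within 0.01 read), which recovered its total, 56.4 to 129.8 in units of 1e6.

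The test took genes whose 12 libraries together held 10 reads or more. Log2 of the normalized count plus 1 was fitted for the 4 group means in limma 3.58.1 (R 4.3.3, trend) with Benjamini-Hochberg adjustment over 18579 genes and cutoffs of FDR under 0.05 and absolute log2 fold change of at least 1. Past both cutoffs under TGFβ1, edgeR 4.0.16 gave 1522 genes (1448 shared with limma) and DESeq2 1.42.0 gave 1471 (1394 shared) on the recovered reads. The limma step was also run on simulated data, whose outcome is not given here, so no conclusion is drawn from that run.

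The naming rule took the 12 with the largest change in each direction with a mean of at least 50 normalized counts and no overlap, up to 4 of each list past the FDR with that mean, all members of the TGFβ, p38, 14-3-3 and GR lists, the markers, and the most abundant gene of a list, and the text names only some of these. Members and the 104 gene and 8 marker lists were chosen with earlier results of these data known. Alternatives were other pseudocounts, filters, scalings, cutoffs and tests, a replicate block and each library left out.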

Additional observations from a re-analysis of the deposited data

Results flagged for a closer look

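Of 620 genes named by the rule or in the text, 25 had a line difference of another size under TGFβ1 than under vehicle. This was by limma's test of that difference (FDR under 0.05 over all genes, n = 3 libraries in each of 4 groups). Of all 18579 genes tested, 77 (0.414%) passed it. Values are the log2 line difference under TGFβ1 minus that under vehicle, and no explanation was tested. In all 20 other settings that could test it, the call held for 10 of these genes, INHBB, PDGFRB, PLAU, PMEPA1, WNT5B, JUNB, COL1A1, LEFTY1, SNAI1 and FST. The call of the other 15 was lost without at least 1 library, and 10 of the 25 calls were left without wt-GR TGFβ1 replicate 1. The value was negative for 20 genes. Among TGFβ pathway genes it was −4.56 for LEFTY2, −3.27 for LEFTY1, −0.87 for FST, −0.72 for PMEPA1, −0.48 for TGFB1, −0.27 for FURIN and −0.24 for ENG. In transcription factors it was −0.92 for JUNB, −0.81 for SNAI1 and −0.37 for EPAS1. Among matrix, adhesion and protease genes it was −2.01 for OLFM2, −1.17 for COL1A1, −0.62 for ITGB4, −0.66 for F2RL3 and −0.54 for PLAU. It was −1.74 for the keratin KRT16, −0.68 for PDGFRB, −0.59 for FGF1, −0.75 for WNT5B and −0.31 for SRC. The value was positive for the other 5, at 1.24 for NEDD9, 1.04 for TNS4, 0.97 for INHBB, 0.43 for CDH11 and 0.32 for TIMP3. LEFTY2 had no read in either line under vehicle, where no line difference could be measured, so its value is the TGFβ1 difference alone. LEFTY1 and LEFTY2 are close in sequence and their separate values are uncertain.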

How the results depend on the processing

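Under TGFβ1 the number of genes past both cutoffs (1571, with 720 higher and 851 lower) was 805 (318 and 487) with a pseudocount of 16, and 936 with 321 higher at a cutoff of 1.5. Under vehicle 1767 (941 and 826) became 940 (424 and 516) with the pseudocount of 16, and 1016 with 423 higher at the cutoff of 1.5. Leaving out each library in turn gave 1380 to 1620 under TGFβ1 (586 to 787 higher, 784 to 868 lower) and 1602 to 1817 under vehicle (802 to 980 higher, 795 to 837 lower). A larger pseudocount shrinks changes of genes with few reads, and a higher cutoff passes fewer genes by construction. The 77 genes whose line effect differed between treatments (31 positive, 46 negative) became 208 (98 and 110) with DESeq2, where the cause was not tested, and 22 to 166 (8 to 77 positive, 14 to 89 negative) without 1 library. Without wt-GR vehicle replicates 2 and 3 it was 27 and 166. Without wt-GR TGFβ1 replicates 1, 2 and 3 it was 22, 36 and 35. Without S134A-GR vehicle replicates 1, 2 and 3 it was 37, 39 and 38, and without S134A-GR TGFβ1 replicates 2 and 3 it was 51 and 47. Equal replicate numbers did not mark pairs (mean r of deviations −0.00324 across 12506 genes), and a replicate block gave 1551 genes under TGFβ1, 1518 of them shared with the 1571. Of 517 genes under the naming rule or in the text that passed the FDR under TGFβ1, 478 kept the same sign and stayed past the FDR in all 21 other settings that tested them, and none of them changed direction past the FDR. Counts of 1 or 2 genes in the ETS, HOX, keratin, claudin, desmosome, interleukin and dual specificity phosphatase lists moved by 1 or 2 genes in other settings. Counts past both cutoffs fell in many lists with the pseudocount of 16 or the cutoff of 1.5 and stayed the same in others.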

Other observations

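Single genes of families further from TGFβ and GR signaling also differed between the lines under TGFβ1. Of 63 potassium channel genes 10 (15.9%) were higher and 13 (20.6%) lower in S134A-GR cells, against 23.1% and 25.7% of all genes, and 6 (9.52%) and 5 (7.94%) past both cutoffs, against 3.88% and 4.58%. KCNK1, a leak channel, had 158, 164 and 113 normalized counts in wt-GR and 0, 2.02 and 1.43 in S134A-GR libraries, and KCND1, a voltage-gated channel, 189, 202 and 238 against 385, 517 and 588. The first was lower and the second higher in every S134A-GR library. ABCC9, a regulatory subunit of potassium channels in the ABC transporter family, had 22.2, 41.7 and 29.5 against 163, 168 and 185, and of 40 ABC transporters 12 were higher and 11 lower (6 lower without wt-GR TGFβ1 replicate 1), near the shares of all genes. Of 26 cancer-testis antigen genes, which tumors share with germ cells, 7 (26.9%) were higher and 3 (11.5%) lower. MAGEC2 was higher, with 3137, 3059.5 and 3179.6 against 5948, 5992 and 5818, and MAGEB2 lower, with 293, 294 and 243 against 34.2, 75.9 and 51.5. Both lie on chromosome X, where the median log2 fold change was 0.12.

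Of 16 complement and coagulation regulators 5 were higher and 6 lower, with the protease C1S at 95.5, 90.8 and 79.4 against 243, 239 and 196 and the central component C3 lower (−1.07). Among 11 annexins, which bind membranes with calcium, 5 were higher and 3 lower, led by ANXA10 (2.79) and ANXA4 (−0.51). Of 21 peptide hormone genes 10 were higher (6 without wt-GR TGFβ1 replicate 3) and 5 lower. PTHLH, a calcium-raising hormone of tumors, was higher (1.80) and VIPR1, the receptor of a gut peptide, lower (−1.73). The gonadotropin gene CGB was higher (1.18), although genes of its cluster are near-identical and reads may be shared.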
